A study of Mus musculus with 16 samples.

Results

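The 9 genes described here code for the glucose and fructose transporters of the kidney. They were taken by symbol from the 31053 genes counted in each library, and all 9 were found. They comprise the sodium-coupled transporters Slc5a1, Slc5a2, Slc5a9 and Slc5a10 and the facilitative transporters Slc2a1, Slc2a2, Slc2a3, Slc2a4 and Slc2a5. Single-cell RNA-seq libraries were made from the kidneys of 16 mice, 1 library per mouse, with 2 mice in each of 8 groups. DN mice were BTBR ob/ob animals, which lack functional leptin and become obese and diabetic, and control mice were BTBR +/+ animals. Females and males of both genotypes were sampled aged 6 or 12 weeks, the onset and the early stage of diabetic nephropathy (DN) in this model. Mice of both genotypes also carried a podocyte reporter, a fluorescent protein switched on by a Cre recombinase under a podocyte promoter. The papilla was removed and the proximal tubule (PT) was partially depleted on a Percoll gradient, so the PT cells in these libraries are those the gradient left behind.

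Sugar crosses the tubular epithelium in 2 steps. Sodium-coupled transporters of the SLC5 family draw it from the lumen into the cell against its gradient, and facilitative transporters of the SLC2 family let it leave towards the blood. In the PT, SGLT2 (Slc5a2) takes up most of the filtered glucose in the early segment S1 and SGLT1 (Slc5a1) takes up the remainder further along, while GLUT2 (Slc2a2) is the main exit. SGLT5 (Slc5a10) and SGLT4 (Slc5a9) carry mannose and fructose, GLUT5 (Slc2a5) carries fructose, GLUT1 (Slc2a1) serves basal glucose supply in many cells, GLUT4 (Slc2a4) is the insulin-responsive transporter of muscle and fat, and GLUT3 (Slc2a3) is a high-affinity transporter of neurons and leukocytes.

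The libraries held 116439 barcodes and 1267078476 unique molecular identifiers (UMIs), and 85820 cells were kept after filters. Of these, 68253 cells fell into clusters that marker genes could name, and 17567 stayed unnamed. No transporter and no gene of the related lists was used for clustering or as a marker. A name ending in -like marks a class rebuilt from such markers. The PT-like cells comprised 9903 S1-like cells, 8056 S2-S3-like cells and 440 cells whose segment was not resolved, 437 of them from the second control male of 6 weeks. Libraries fell into a set of 12 with 83410397 to 125551519 UMIs each and a set of 4 with a different barcode list and 10510855 to 21728793 UMIs each. The smaller set was the first replicate of every female group, so it was balanced for genotype and age but not for sex. The second control male of 6 weeks stood apart within the larger set, with a median of 698 UMIs per barcode, and of 582.5 and 609.5 UMIs in its S1-like and S2-S3-like cells. Libraries shared at most 1.43% of their barcodes. The transcript of Lep, the gene mutated in ob/ob mice, gave 0 to 2 UMIs per library, which checks no genotype label. Levels are given as CPM, the share of a gene in the UMIs of that class in that library, scaled to 1000000. Because UMIs mark the 3′ end of transcripts, levels were compared between classes and mice and not between genes.

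The 9 transporters had their highest levels in several tubular and non-tubular classes. Slc5a2, Slc2a2, Slc5a10, Slc2a5 and Slc5a9 had their highest mean level in PT-like cells, Slc5a1 in cells of the ascending limb of the loop of Henle (aLOH), Slc2a1 in collecting duct principal cells (PC), Slc2a4 in smooth muscle and renin cells and Slc2a3 in immune cells. These levels over 16 libraries (15 for podocyte-like and mitotic-like cells, of which 1 library each had fewer than 10) are a description with no test between classes.

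**Figure D1:**
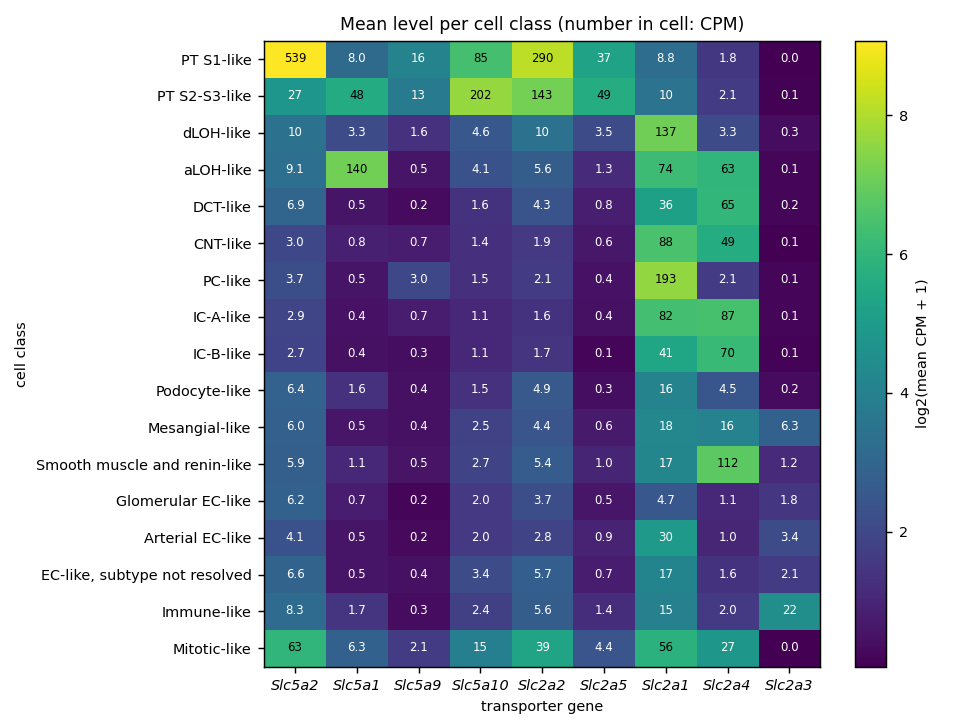
Heatmap of the mean level of each transporter (columns) in each cell class (rows), with the number in each cell giving the mean CPM over libraries and the colour log2(mean CPM + 1). The blocks to look for are Slc5a2, Slc2a2, Slc5a10 and Slc2a5 in both PT-like rows and Slc5a1 in the aLOH-like row. Slc2a1 is highest in the PC-like and descending limb rows. Slc2a4 is highest in the smooth muscle and renin-like row, followed by the intercalated and distal convoluted tubule rows, and is low in the PC-like row.

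Slc5a2 (chr7:128265657-128272430, plus strand, GRCm38) was an S1 gene. Its level was 539 ± 93.2 CPM in S1-like cells (SD, n = 16; 360 to 814) and 26.9 ± 19.6 CPM in S2-S3-like cells, and in every library S1-like cells stood above all 16 other classes. Mitotic-like cells came next at 62.9 ± 64.8 CPM, and the remaining classes held means of 2.69 to 10.1 CPM. Slc2a2 (chr3:28697903-28731359, plus strand), which passes glucose on to the blood, followed the same order with a shallower slope. It measured 290 ± 90.8 CPM in S1-like cells against 143 ± 51.9 CPM in S2-S3-like cells, and S1-like cells were higher in 16 of 16 libraries.

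Slc5a10 (chr11:61672781-61720826, minus strand) showed the opposite order along the PT. It measured 202 ± 97.5 CPM in S2-S3-like cells and 84.8 ± 70.3 CPM in S1-like cells, with S2-S3-like cells higher in 16 of 16 libraries. Slc2a5 (chr4:150119283-150144169, plus strand) was at 48.7 CPM in S2-S3-like and 37.2 CPM in S1-like cells, with S2-S3-like cells higher in 13 of 16 libraries. Slc5a9 (chr4:111875375-111902918, minus strand) did not separate the segments, at 16.2 ± 8.74 CPM in S1-like and 13.0 ± 8.54 CPM in S2-S3-like cells, S1-like cells being higher in 10 of 16 libraries.

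RNA of PT cells can reach the droplets of other cells, so the level of each PT transporter outside the PT was set beside that of 6 genes taken as PT genes (Slc34a1, Miox, Acsm2, Ttc36, Slc13a1 and Slc22a6), as a percentage of the level in PT-like cells of the same library. Ttc36 stood above the other 5 in 10 of 14 classes other than mitotic-like cells, with 6.36% in aLOH-like and 4.92% in distal convoluted tubule (DCT)-like cells, and was left out of the comparison after these values were seen. The other 5 genes stood at medians of 0.472 to 2.56% in those 14 classes and at 6.56 to 17.7% in mitotic-like cells. All 6 genes but Slc22a6 were also among the markers that named PT-like cells, and the transporters were not. The low level of these markers outside the PT is thus in part fixed by how the classes were formed, which can lower the range. The part of this in levels above the range was not tested. Levels inside the range of the 5 genes in a class cannot be told apart from such free RNA. Slc5a10 was within it in 10 of 15 classes and below it in 5. Slc2a2 was within it in 9 of 15 classes and above it in 6, led by descending limb (dLOH)-like cells (4.22%), endothelial cells of unresolved subtype (2.62%) and aLOH-like cells (2.49%). Slc5a2 was within it in 7 of 15, below it in 1 and above it in 7, led by mitotic-like (20.3%), dLOH-like (3.54%) and aLOH-like cells (3.13%). Some margins were slight. Slc5a2 stood at 1.601% against a top of 1.599% in smooth muscle and renin-like cells, and at 1.947% against 1.936% in mesangial-like cells. With Ttc36 included, Slc2a2 was above in 3 classes and Slc5a2 and Slc5a9 in 4 each. Slc2a5 was above the range in dLOH-like (5.16%) and aLOH-like cells (2.57%), and in the latter inside it with Ttc36 included. Slc5a1 was at 12.9% of its PT level in dLOH-like cells, with 3.33 CPM and 50 UMIs. Its main site was aLOH-like cells (140 CPM, beside 28.3 CPM in all PT-like cells). A range from PT genes does not cover free RNA of aLOH-like cells, whose part in the dLOH-like value was not tested. Slc5a9 was above the range of the 5 genes in 5 classes. In PC-like cells it stood at 23.2% of its PT level, with 3.05 ± 1.09 CPM (1.12 to 4.32) and 244 UMIs over the 16 libraries. Next came dLOH-like (10.2%, 22 UMIs), type A intercalated (IC-A)-like (4.99%, 41 UMIs), connecting tubule (CNT)-like (3.45%, 47 UMIs) and type B intercalated (IC-B)-like cells (1.71%, 28 UMIs). With Ttc36 included, the IC-B-like value was inside the range, and the CNT-like value was 3.454% against a top of 3.424%. The 11.4% of Slc5a9 in mitotic-like cells lay inside the range there.

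Slc5a1 (chr5:33104219-33162870, plus strand) had 2 sites. In aLOH-like cells it measured 140 ± 71.2 CPM (60.8 to 289) and in S2-S3-like cells 48.1 ± 21.1 CPM (22.1 to 87.1), with aLOH-like cells higher in 16 of 16 libraries. S1-like cells held 8.03 ± 6.08 CPM and dLOH-like cells 3.33 ± 3.16 CPM. Slc2a1 (chr4:119108711-119137983, plus strand) rested mainly outside the PT. PC-like cells held 193 ± 36.0 CPM, dLOH-like cells 137 ± 44.8 CPM, CNT-like cells 88.2 ± 14.2 CPM, IC-A-like cells 81.8 ± 14.4 CPM and aLOH-like cells 74.3 ± 17.8 CPM, and PC-like cells exceeded dLOH-like cells in 13 of 16 libraries. Both PT-like types lay low, at 8.79 ± 7.56 CPM in S1-like and 10.3 ± 5.71 CPM in S2-S3-like cells, as did glomerular endothelial-like cells at 4.70 ± 2.38 CPM (15.3 CPM when called doublets were kept).

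Slc2a4 (chr11:69942539-69948188, minus strand) measured 112 ± 28.8 CPM in smooth muscle and renin-like cells (53.5 to 150). It also measured 86.6 ± 22.5 CPM in IC-A-like cells, 69.8 ± 20.1 CPM in IC-B-like cells, 64.8 ± 16.5 CPM in DCT-like cells, 62.5 ± 11.2 CPM in aLOH-like cells and 48.8 ± 17.1 CPM in CNT-like cells. IC-A-like cells exceeded IC-B-like cells in 16 of 16 libraries, while IC-B-like cells exceeded DCT-like cells in 10 of 16 and did not separate from them. In PC-like cells, neighbours of the intercalated cells in the collecting duct, it was at 2.15 ± 1.26 CPM. Slc2a3 (chr6:122727809-122801640, minus strand) gave 471 UMIs in all kept cells. Its highest mean was 21.8 ± 15.95 CPM in immune-like cells, where 2 libraries had none, followed by 6.29 CPM in mesangial-like cells, and immune-like cells were higher in 13 of 16 libraries.

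To follow the PT genes within the segments, PT-like cells of each library were ranked from S1 to S3 by 14 segment markers, none of them a transporter described here, and cut into 5 bins of equal size. Of the 8 markers of S2-S3 among them, 5 were called for sex in a PT-like fit and 1 of these for genotype too. The S1-like share of cells ran from 96.7% in the first bin to 4.65% in the fifth. Slc5a2 declined from 802 CPM in the first bin through 411, 157 and 24.2 to 4.36 CPM in the fifth, and Slc2a2 from 367 to 100 CPM (both in 16 of 16 libraries). Slc5a10 climbed from 31.6 through 108, 178 and 207 to 197 CPM, and Slc5a1 from 1.40 to 50.4 CPM (both higher in the last than the first bin in 16 of 16 libraries). Over both genotypes Slc2a5 stayed between 34.5 and 40.7 CPM in 4 bins and reached 56.5 CPM in the last. From the first to the last bin it went from 28.9 to 30.1 CPM in control mice and from 50.3 to 82.9 CPM in DN mice. Slc5a9 was U-shaped over both genotypes, at 23.3 CPM in the first bin, 9.87 CPM in the third and 16.2 CPM in the fifth. From the third to the fifth bin it went from 10.8 to 12.7 CPM in control mice and from 8.97 to 19.7 CPM in DN mice.

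**Figure D2:**
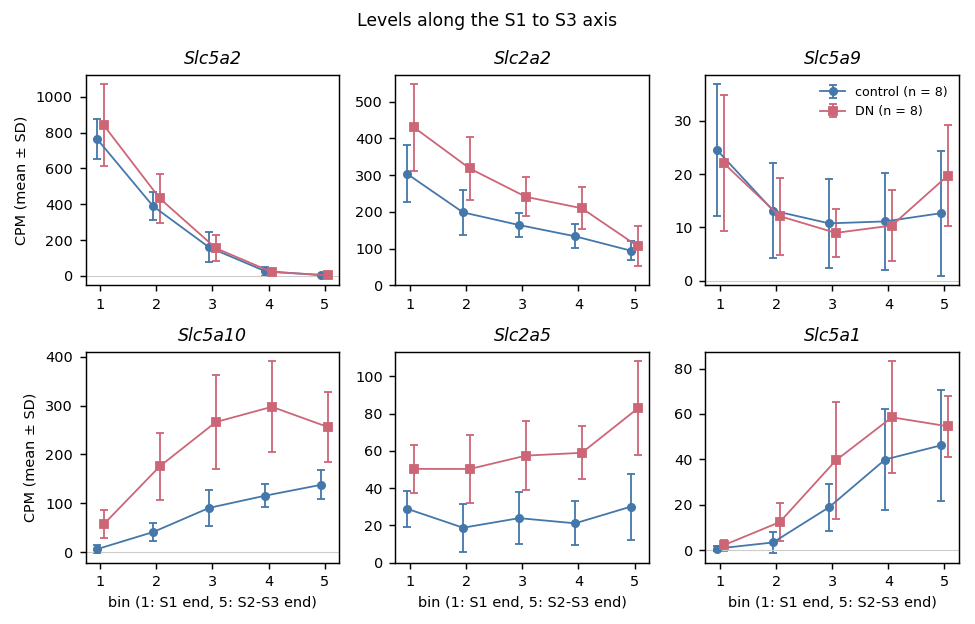
Level (CPM, vertical axes) of 6 transporters in 5 bins of PT-like cells ranked from S1 to S3 (horizontal axes), as mean and SD over 8 control and 8 DN libraries. The DN line of Slc5a10 lies above the control line in all 5 bins. In the first bin it is at 57.2 CPM against 6.04 CPM, a ratio of 9.46. That control mean rests on 130 UMIs in 8 libraries, 1 of them with none. In the last bin it is at 256 CPM against 138 CPM, a ratio of 1.86. The Slc5a2 bars of both genotypes overlap in all 5 bins.

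The main question of the design was how DN mice differ from control mice in each cell class and at each age. Raw UMIs were summed per mouse and class and all genes of a class were fitted together with edgeR's quasi-likelihood test, with p-values adjusted by Benjamini-Hochberg over all genes of that class. Of 60 tests of a transporter in a class at 6 weeks, 3 were called at an adjusted p under 0.05, all higher in DN, beside 0.0586% of all gene and class tests. At 12 weeks 1 of 60 was called, also higher, beside 0.338% of all tests. These calls were Slc5a10 in S1-like cells at both ages and Slc2a5 in both PT-like types at 6 weeks. At an unadjusted p under 0.05 there were 11 of 60 tests at 6 weeks, 7 of them higher in DN, beside 3.63% of all gene and class tests, and 14 at 12 weeks, 10 of them higher, beside 5.59%.

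Slc5a10, the mannose and fructose transporter, rose in S1-like cells of DN mice at both ages. At 6 weeks the control females had 14.3 and 27.5 CPM and the control males 46.0 and 18.2 CPM. The DN females had 79.7 and 178 CPM and the DN males 138 and 135 CPM. Every DN mouse was above every control mouse. The median of UMIs per S1-like cell moved with genotype. It was higher in the DN mouse in 6 of 8 pairs of same-numbered mice of one sex and age, and lower in 2. Slc5a10 was higher in DN in 8 of 8 pairs, so a split of the pairs by depth could give no other outcome. The part of depth was not tested. The means were 133 ± 40.2 CPM in DN and 26.5 ± 14.1 CPM in control (SD, n = 4 each), a log2 fold change of 2.23 ± 0.33 (SE; 95% interval 1.53 to 2.93; edgeR adjusted p = 0.0195).

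At 12 weeks the control females had 13.0 and 26.9 CPM of Slc5a10 in S1-like cells and the control males 44.0 and 32.7 CPM. The DN females had 58.2 and 131 CPM and the DN males 204 and 212 CPM. Again the groups did not overlap, and the lowest DN mouse was a female of the shallower library set. The log2 fold change was 2.26 ± 0.32 (95% interval 1.58 to 2.95; edgeR adjusted p = 0.00718), with means of 151 ± 72.0 and 29.1 ± 12.9 CPM. DN above control without overlap was found for 0.733% of genes in S1-like cells at 6 weeks and for 1.61% at 12 weeks. The share of genes called in S1-like cells was 0.122% at 6 weeks and 0.253% at 12 weeks.

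In S2-S3-like cells, where Slc5a10 is most abundant, the same direction came with a smaller fold. The control mice at 6 weeks had 83.2, 143, 119 and 99.4 CPM and the DN mice 185, 289, 242 and 295 CPM. At 12 weeks the control mice had 149, 153, 142 and 111 CPM and the DN mice 166, 388, 366 and 299.6 CPM. The groups did not overlap at either age, beside 1.19% of genes at 6 weeks and 1.95% at 12 weeks. The log2 fold changes were 1.08 ± 0.27 (edgeR adjusted p = 0.182) and 1.05 ± 0.27 (adjusted p = 0.228), so neither passed the test. With the replicate number as a block the value at 6 weeks did pass (1.12, edgeR adjusted p = 0.0491; 0.412% of genes called), and DESeq2 called both ages (adjusted p = 0.0102 and 0.0117). Summed over all PT-like cells, Slc5a10 rose at both ages, by 1.32 ± 0.22 (adjusted p = 0.0178) and 1.28 ± 0.22 (adjusted p = 0.0207) on the log2 scale, beside 0.388% and 0.261% of genes called. Leaving out 1 library cost these calls in 5 of 16 fits at 6 weeks (1.18 to 1.44, highest adjusted p = 0.0936) and in 6 of 16 at 12 weeks (1.13 to 1.45, highest adjusted p = 0.149).

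The 6-week call for Slc5a10 in S1-like cells was lost without the first control female (2.11, edgeR adjusted p = 0.0505), the second control female (2.19, adjusted p = 0.0785) or the first DN male of that age (2.22, adjusted p = 0.172), and in the larger library set alone (2.16, adjusted p = 0.0592). It was kept without the shallow second control male (2.03, adjusted p = 0.0194). The 12-week call was lost without the second control male of that age (2.13, adjusted p = 0.0586).

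**Figure D3:**
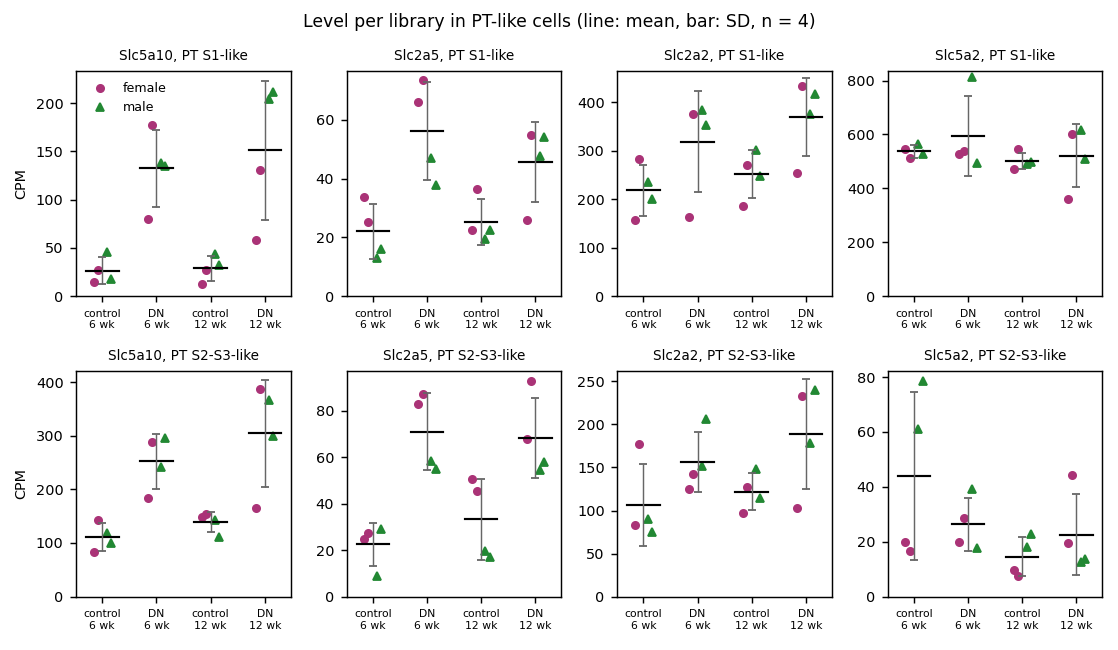
Level in every library (CPM, vertical axes) of Slc5a10, Slc2a5, Slc2a2 and Slc5a2 in S1-like and S2-S3-like cells, by genotype and age (horizontal axes), with a point per mouse marked by sex and bars for the mean and SD of 4 mice. DN and control points of Slc5a10 do not overlap in either segment at either age, whereas those of Slc5a2 overlap throughout.

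Along the S1 to S3 ranking, the DN to control ratio of mean Slc5a10 levels was 9.46 in the first bin, 4.28 in the second, 2.94 in the third, 2.58 in the fourth and 1.86 in the fifth. The level went from 6.04 to 138 CPM in control and from 57.2 to 256 CPM in DN. Single DN and control libraries overlapped in every bin. The first ratio rests on a control mean of 6.04 ± 7.81 CPM (SD), from 130 UMIs in 8 libraries, 1 of them with none. In the third bin the means were 90.5 CPM in control and 266 CPM in DN. Ranked without the S2-S3 markers called for sex or genotype, an alternative chosen after the values were seen, the ratios were 8.07, 4.65, 2.86, 2.44 and 2.07. The ratio of S2-S3-like to S1-like levels within a library gave the test of this difference, a test chosen after the values were seen. On the log2 scale it was 2.23 ± 0.64 in control and 1.03 ± 0.38 in DN (SD, n = 8 each), a difference of -1.20 (exact permutation within age and sex, two-sided p = 0.00154, adjusted p = 0.00926 over 6 genes). That call was kept without any 1 of the 16 libraries (-1.33 to -1.03). The same ratio was also smaller in DN for Slc5a1 (2.23 against 3.06, exact adjusted p = 0.0463) and larger for Slc5a9 (0.20 against -0.75, exact adjusted p = 0.0463). Each of these calls was lost in 12 of 16 sets that left out 1 library and with a pseudocount of 5 CPM in place of 1 (-0.34, exact adjusted p = 0.139, and 0.51, exact adjusted p = 0.102). Slc5a9 had no UMI in S1-like cells of the first DN female of 6 weeks, so the pseudocount sets the ratio of that library, and without it the difference of 0.94 was 0.51 (exact adjusted p = 0.190). For Slc5a1 the difference of -0.83 went to -0.54 without the first control female of 6 weeks (exact adjusted p = 0.0864). For Slc2a5, Slc2a2 and Slc5a2 the difference did not pass (exact adjusted p = 0.169, 0.774 and 0.897). The S2-S3-like share of PT-like cells was 46.9 ± 4.50% in DN and 41.6 ± 5.39% in control (exact permutation p = 0.0340). The second control male of 6 weeks, with 437 of its 1925 PT-like cells unresolved, had the lowest share. With unresolved cells left out the control share was 42.9 ± 4.23% and the difference 4.08 points (exact permutation p = 0.0586), without that library it was 4.13 points (exact permutation p = 0.0849), and the shares were 0.679 points apart with the finer clustering (p = 0.748). That share lost its call in 6 of 16 sets that left out 1 library (4.06 to 6.34 points). The cells of the first bin were 96.7% S1-like, and its ratio for Slc5a10 rests on the low control mean given above. The part of segment mix in the levels of segments taken as a whole, and in those of the bins, was not tested.

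Slc2a5, the fructose transporter, rose in both PT-like types of DN mice at 6 weeks. In S1-like cells the control females had 33.9 and 25.2 CPM and the control males 13.1 and 16.05 CPM. The DN females had 66.0 and 73.6 CPM and the DN males 46.9 and 37.8 CPM. Within each sex and over both sexes the DN mice were the higher ones without overlap. The log2 fold change was 1.45 ± 0.24 (edgeR adjusted p = 0.0372), with means of 56.1 ± 16.6 CPM in DN and 22.1 ± 9.41 CPM in control. This call was lost in 10 of 16 fits that left out 1 library, whose log2 fold changes over all 16 ran from 1.27 to 1.59 and whose highest adjusted p was 0.252, and in the larger library set alone (1.56, adjusted p = 0.0592).

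In S2-S3-like cells at 6 weeks, Slc2a5 measured 24.97 and 27.4 CPM in control females and 8.76 and 29.0 CPM in control males. The DN females had 82.9 and 87.4 CPM and the DN males 58.3 and 55.1 CPM. The lowest DN mouse, a male, was well above the highest control mouse, also a male. The log2 fold change was 1.69 ± 0.27 (edgeR adjusted p = 0.0201), beside 0.129% of genes called. The call was lost without the first or second control female (adjusted p = 0.0564 and 0.0868), the first control male (1.43, adjusted p = 0.0771) or the first DN male (1.59, adjusted p = 0.156), and in the larger library set alone (1.71, adjusted p = 0.0657). With all PT-like cells together it rose by 1.65 ± 0.20 (adjusted p = 0.00200), and it did so too in the larger set (1.72, adjusted p = 0.0074).

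At 12 weeks Slc2a5 had the same direction with smaller folds and no call in the main fits. S1-like cells held 22.5 and 36.5 CPM in control females, 19.3 and 22.4 CPM in control males, 26.0 and 54.9 CPM in DN females and 47.6 and 54.0 CPM in DN males. The first DN female was within the control range, and the other DN mice were above it. The log2 fold change was 0.82 ± 0.23 (edgeR adjusted p = 0.331) and 0.86 with the replicate block (adjusted p = 0.0208, beside 1.69% of genes called). S2-S3-like cells held 50.8, 45.7, 19.6 and 16.9 CPM in control and 68.0, 93.0, 54.5 and 57.8 CPM in DN mice, with no overlap and a log2 fold change of 1.12 ± 0.25 (adjusted p = 0.142, and 0.00658 by DESeq2). Over all PT-like cells the value was 1.00 ± 0.20 (adjusted p = 0.0513), and 1.02 with the block (adjusted p = 0.0147, beside 2.22% of genes called). It was called too by DESeq2 (0.99, adjusted p = 0.000276), and by edgeR with a barcode list term (1.01, adjusted p = 0.0105) and in the larger library set (1.18, adjusted p = 0.0272). Without 1 library it ran from 0.85 to 1.11 (edgeR adjusted p from 0.0458 to 0.314). In each pair of same-numbered mice of one sex and age, the DN mouse had the higher level of Slc5a10 and of Slc2a5 in both PT-like types, in 8 of 8 pairs. The share of all genes with 8 of 8 pairs in one direction was not counted, so this and the pair counts below are a description.

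**Figure D4:**
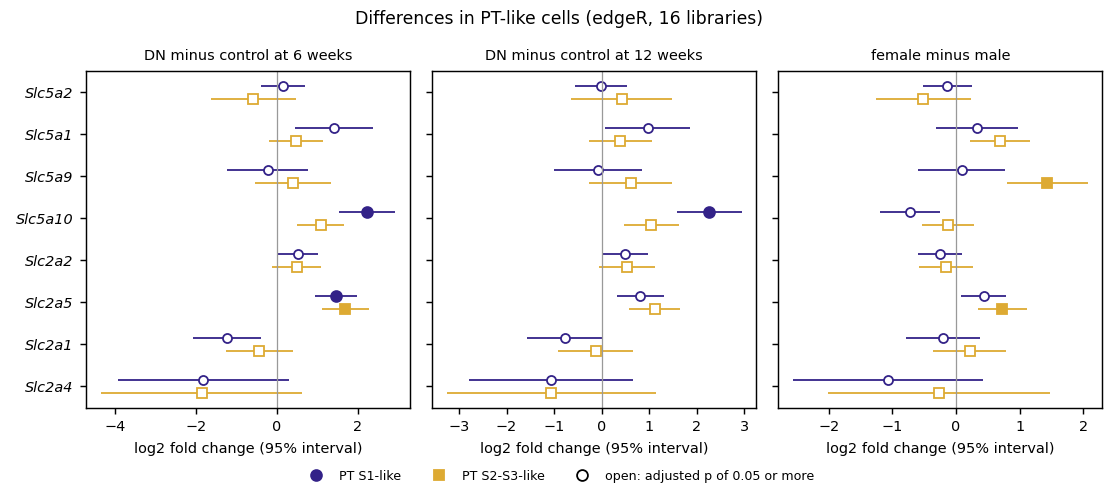
Log2 fold change of DN minus control (horizontal axis) with its 95% interval for the transporters tested in S1-like and S2-S3-like cells, at 6 and 12 weeks, with female minus male in the right panel. Filled points passed an adjusted p of 0.05, namely Slc5a10 in S1-like cells at both ages (2.23 and 2.26), Slc2a5 in both types at 6 weeks (1.45 and 1.69), and Slc5a9 (1.43) and Slc2a5 (0.73) in S2-S3-like cells between the sexes.

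Slc2a2, the exit for glucose and fructose, was higher in DN in 8 of 8 pairs in S1-like cells and in 7 of 8 in S2-S3-like cells, by amounts that did not pass the test. At 6 weeks S1-like cells of control mice had 157, 283, 235 and 199.9 CPM and those of DN mice 164, 376, 384 and 352 CPM. At 12 weeks control mice had 186, 270, 303 and 248 CPM and DN mice 255, 434, 375 and 417 CPM. The groups overlapped at both ages because the first DN female of each age lay within the control range. The log2 fold changes were 0.51 ± 0.23 (95% interval 0.02 to 1.01) at 6 weeks and 0.49 ± 0.23 at 12 weeks, and with the replicate block the 12-week value passed (0.50, edgeR adjusted p = 0.0365), beside the 1.69% of genes that fit called. In S2-S3-like cells the means were 157 ± 35.1 CPM in DN and 106 ± 47.6 CPM in control at 6 weeks, and 189 ± 63.5 and 122 ± 21.5 CPM at 12 weeks, with log2 fold changes of 0.49 and 0.54 and intervals that reach below 0.

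Slc5a2, the bulk glucose transporter of S1, showed no difference beyond the spread between mice in S1-like cells. At 6 weeks DN mice had 594 ± 148 CPM (495 to 814) and control mice 537 ± 23.1 CPM (511 to 564), a log2 fold change of 0.15 (95% interval -0.39 to 0.70). At 12 weeks DN mice had 521 ± 118 CPM (360 to 616) and control mice 502 ± 30.6 CPM (473 to 545), a log2 fold change of -0.01 (95% interval -0.56 to 0.53). The spread among DN mice was the wider one at both ages.

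In S2-S3-like cells Slc5a2 was sparse, at a median of 3.71% of its S1-like level in the same library (1.40 to 14.9%), and in the S1 to S3 ranking it went from 157 CPM in the third bin to 4.36 CPM in the fifth. The part of cells near the border of the 2 types in its level, and that of free RNA, was not tested. Control females had 16.7, 20.0, 7.61 and 9.74 CPM and DN females 19.8, 28.7, 19.5 and 44.3 CPM, over both ages. Control males had 61.0 and 78.7 CPM at 6 weeks and 18.0 and 23.0 CPM at 12 weeks, and DN males 17.9 and 39.1 CPM and 12.7 and 13.8 CPM. The 6-week control males were the highest of all 16 mice, and the higher of them was the library with a median of 609.5 UMIs per S2-S3-like cell. The DN effect in females minus that in males was 2.17 ± 0.44 on the log2 scale (95% interval 1.24 to 3.11; edgeR adjusted p = 0.0649), and 2.31 ± 0.37 with the replicate block (adjusted p = 0.0115, and 0.00292 by DESeq2 without it), beside 0.232% of genes called in S2-S3-like cells without the block and 1.13% with it. Without that library the value was 2.19 (edgeR adjusted p = 0.105), and without any 1 library it ran from 1.88 to 2.60.

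Slc5a1 in S1-like cells had means of 12.7 CPM in DN and 4.06 CPM in control at 6 weeks and of 10.4 and 4.96 CPM at 12 weeks. DN mice were higher in 8 of 8 pairs, and the log2 fold changes of 1.41 ± 0.45 (edgeR adjusted p = 0.539) and 0.97 (adjusted p = 0.906) did not pass. With no filter on low counts the 6-week value was called (1.44, edgeR adjusted p = 0.00133). Along the S1 to S3 ranking its DN to control ratio was 3.33, 3.68, 2.09, 1.47 and 1.18 from the first bin to the last, where the first rests on means of 2.15 and 0.645 CPM and the groups overlapped in every bin. Slc5a9 did not differ with genotype in a way the test could call, with log2 fold changes of -0.23 and -0.08 in S1-like and of 0.40 and 0.61 in S2-S3-like cells. Slc2a1, sparse in the PT, was lower in DN in S1-like cells in 8 of 8 pairs, with log2 fold changes of -1.23 ± 0.40 (adjusted p = 0.55) and -0.78. The part of free RNA from distal cells in this low level (8.79 CPM, beside 193 CPM in PC-like cells) was not tested.

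Outside the PT, 3 transporters had lower values in DN in all pairs of same-numbered mice and were called only with the replicate block. Slc5a1 in aLOH-like cells, the class where it was highest, measured 141, 289, 97.6 and 166 CPM in control mice and 72.3, 199, 67.6 and 142 CPM in DN mice at 6 weeks. At 12 weeks the values were 106, 273, 82.9 and 204 CPM in control and 60.8, 138, 68.4 and 138 CPM in DN mice. The second replicate was above the first in 8 of 8 groups, and DN and control ranges overlapped. Without the block the log2 fold changes were -0.48 ± 0.34 and -0.68 ± 0.35 (edgeR adjusted p = 1.00 and 0.962), and with it -0.51 ± 0.13 and -0.63 ± 0.13 (adjusted p = 0.0654 and 0.0165), beside 1.99% of genes called with the block at 12 weeks.

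Slc2a1 in PC-like cells measured 177, 209, 254 and 237 CPM in control mice and 156, 159, 198 and 168 CPM in DN mice at 6 weeks. At 12 weeks control mice had 169, 231, 231 and 235 CPM and DN mice 134, 176, 160 and 188 CPM. DN mice were lower in 8 of 8 pairs although the ranges overlapped. In DCT-like cells, too, no pair had Slc2a1 higher in DN (0 of 4 at 6 weeks and 0 of 4 at 12 weeks). Without the block the log2 fold changes were -0.33 and -0.32 (edgeR adjusted p = 1.00 and 0.608), and with it -0.34 ± 0.08 and -0.32 ± 0.08 (adjusted p = 0.0332 and 0.0197), beside 2.04% and 7.18% of genes called with the block. Slc2a4 in mesangial-like cells, the contractile cells of the glomerular tuft, measured 33.2, 22.6, 15.3 and 12.7 CPM in control and 22.0, 19.1, 9.02 and 6.55 CPM in DN mice at 6 weeks. At 12 weeks it measured 17.7, 28.8, 12.0 and 17.2 CPM in control and 4.75, 9.86, 7.31 and 12.1 CPM in DN mice, with 1 DN mouse inside the control range. DN mice were lower in 8 of 8 pairs, with a 12-week log2 fold change of -0.95 ± 0.29 (adjusted p = 0.1002) and of -0.96 ± 0.25 with the block (adjusted p = 0.0113), which called 12.6% of genes in that class. The block also called Slc5a10 in PC-like cells at 12 weeks (1.90, adjusted p = 0.0466), a class where that gene was at 1.47 ± 1.31 CPM and within the range of the 5 PT genes.

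When all kept cells of a mouse were summed, Slc5a10, Slc2a5 and Slc2a2 rose in DN at 12 weeks by 2.13, 1.80 and 1.38 on the log2 scale (edgeR adjusted p = 0.0183, 0.0220 and 0.0325), beside 0.833% of genes called. The calls were lost in 5, 5 and 8 of 16 fits that left out 1 library, with log2 fold changes of 1.86 to 2.40, 1.54 to 2.03 and 1.16 to 1.58. In such a sum, more cells of a type and more RNA per cell cannot be told apart. PT-like cells gave 26.6 to 43.2% of the UMIs of 12-week DN mice (median 31.6%) and 13.4 to 23.6% of those of 12-week control mice (median 18.0%). Slc2a2 was also lower in females than males in this sum (-0.76, adjusted p = 0.0433, beside 2.37% of genes called), a call lost in 13 of 16 such fits, with a barcode list term (-0.56, adjusted p = 0.137) and in the larger library set alone (-0.58, adjusted p = 0.183). With the replicate block, Slc2a1, a transcript of the distal nephron here, was lower in DN at 12 weeks (-0.58, adjusted p = 0.0088) and Slc5a2 higher (0.94, adjusted p = 0.0262), beside 13.9% of genes called.

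Age was compared within each genotype and between the DN effects. No transporter was called in any class between 12 and 6 weeks in control mice (edgeR, 5 of 60 tests at an unadjusted p under 0.05, 0 by DESeq2) or in DN mice (3 of 60, 0 by DESeq2). These stand beside 0.000617% and 0% of all gene and class tests called, and 2.75% and 2.68% at the unadjusted threshold. The DN effect at 12 weeks minus that at 6 weeks was called for none (edgeR, 1 of 60 at an unadjusted p under 0.05, 0 by DESeq2; 0% of all tests called and 1.33% at the unadjusted threshold). That difference was 0.04 for Slc5a10 in S1-like cells, and -0.63 for Slc2a5 in S1-like cells with a 95% interval of -1.34 to 0.08. Over all PT-like cells, the smaller DN effect on Slc2a5 at 12 weeks amounted to -0.65 (edgeR adjusted p = 1.00).

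Females and males differed in S2-S3-like cells in 2 of the 60 tests over all classes, beside 1.22% of all gene and class tests and 10.1% of genes in S2-S3-like cells. Both genes were higher in females. Slc5a9 had a lowest, median and highest level of 8.48, 17.8 and 28.1 CPM in 8 females and of 2.98, 7.72 and 14.2 CPM in 8 males. The upper part of the female range lay above all males and the lower part overlapped with them. The log2 fold change was 1.43 ± 0.30 (95% interval 0.80 to 2.07; edgeR adjusted p = 0.00654), and the call was kept without any 1 of the 16 libraries (1.19 to 1.65) and in the larger library set (1.78, adjusted p = 0.00665). In S1-like cells the means were 16.9 CPM in females and 15.6 CPM in males.

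Slc2a5 in S2-S3-like cells had a lowest, median and highest level of 24.97, 59.4 and 93.0 CPM in females and of 8.76, 41.8 and 58.3 CPM in males. The overlap of the sexes was broad, since DN males lay above control females. The log2 fold change was 0.73 ± 0.18 (95% interval 0.34 to 1.11; edgeR adjusted p = 0.0185), and it was lost without the second control male of 12 weeks (0.64, adjusted p = 0.0513) or the second DN male of 6 weeks (0.68, adjusted p = 0.0510). Over all PT-like cells Slc2a5 was also higher in females (0.65, adjusted p = 0.00887, beside 9.65% of genes called), in every fit that left out 1 library. Slc5a1 in S2-S3-like cells measured 59.6 ± 21.6 CPM in females and 36.7 ± 13.6 CPM in males, a log2 fold change of 0.69 ± 0.22 that missed the threshold (adjusted p = 0.0641) and passed in the larger library set (0.94, adjusted p = 0.00866). For Slc5a9 in S2-S3-like cells the DN effect in females minus that in males was -1.57 ± 0.48 (adjusted p = 0.511), and over all PT-like cells it was -1.12 (adjusted p = 1.00), or -1.09 with the replicate block (adjusted p = 0.0114, beside 1.92% of genes called). Over all classes, none of the 60 tests of that difference was called (edgeR, 5 at an unadjusted p under 0.05), beside 0.0185% of all tests called and 1.5% at the unadjusted threshold, and over both PT-like types DESeq2 called 1 of 16.

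**Figure D5:**
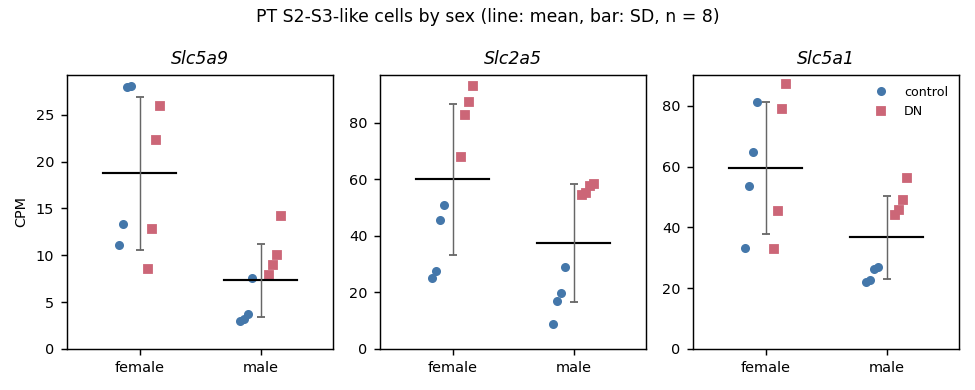
Level in every library (CPM, vertical axes) of Slc5a9, Slc2a5 and Slc5a1 in S2-S3-like cells of 8 females and 8 males, with control and DN mice marked apart and bars for the mean and SD. Female means are higher for all 3 genes (for example 18.8 CPM against 7.31 CPM for Slc5a9), and the sexes overlap for each.

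Promoters are shown for Slc5a10 and Slc2a5, the transporters called for DN in PT-like types, and for Slc2a2, the exit transporter, which was called for DN in the sum of all kept cells and in a PT-like type only with the replicate block. RefSeq windows of 300 bases (250 before and 50 after the annotated start, GRCm38.p6) were matched for 5 of the 9 transporters, in 6 windows, and searched on both strands for 3 motifs, an HNF1 half-site (GTTAAT), an E-box (CACGTG) and a nuclear receptor half-site (AGGTCA). These were found in 7.10%, 7.15% and 16.3% of 32851 such windows. Each window is printed in the direction of its gene, with matches in capitals.
Slc5a10, chr11:61720750-61721049, minus strand: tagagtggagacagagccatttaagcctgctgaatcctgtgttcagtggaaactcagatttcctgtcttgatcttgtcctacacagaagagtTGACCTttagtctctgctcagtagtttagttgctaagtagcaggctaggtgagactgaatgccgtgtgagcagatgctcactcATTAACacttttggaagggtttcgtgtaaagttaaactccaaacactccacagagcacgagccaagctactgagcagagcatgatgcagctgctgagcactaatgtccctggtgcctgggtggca
Slc2a5, chr4:150119094-150119393, plus strand: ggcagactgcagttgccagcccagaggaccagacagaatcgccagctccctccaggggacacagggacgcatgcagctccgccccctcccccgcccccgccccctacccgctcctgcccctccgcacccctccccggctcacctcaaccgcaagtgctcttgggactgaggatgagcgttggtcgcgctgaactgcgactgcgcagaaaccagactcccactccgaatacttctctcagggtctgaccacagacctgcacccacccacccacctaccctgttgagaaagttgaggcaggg
Slc2a2, chr3:28697653-28697952, plus strand: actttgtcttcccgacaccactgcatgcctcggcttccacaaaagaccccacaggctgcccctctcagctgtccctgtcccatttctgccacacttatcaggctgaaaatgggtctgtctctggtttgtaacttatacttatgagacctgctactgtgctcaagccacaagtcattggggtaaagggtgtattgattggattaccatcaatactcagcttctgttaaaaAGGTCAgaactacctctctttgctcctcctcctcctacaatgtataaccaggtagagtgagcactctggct

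The Slc5a10 window held an HNF1 half-site at base -75 from the start and a nuclear receptor half-site at base -158, both on the opposite strand (ATTAAC and TGACCT as printed). The Slc2a2 window held a nuclear receptor half-site at base -21, and the Slc2a5 window held none of the 3 motifs. A match describes letters in a window and not a bound site. A second Slc5a10 window, at a downstream start (chr11:61719936-61720235), held none, that of Slc5a1 held an E-box at base -143, and that of Slc2a1 held none.

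Genes around sugar transport were counted in PT-like cells from 3 lists. Of 12 other SLC2 and SLC5 transporters, 6 were expressed enough to test, and all 13 partners and regulators and all 10 genes of fructose metabolism and gluconeogenesis were tested. None was called for DN against control at 6 or 12 weeks in S1-like or S2-S3-like cells (edgeR). At an unadjusted p under 0.05 stood 1 gene of the fructose and gluconeogenesis list at 6 weeks and 2 at 12 weeks in S1-like cells, and none in S2-S3-like cells. The partners and regulators had 1 such gene in each PT-like type at 12 weeks, and the other transporters 1 in S1-like cells at 12 weeks. Over all genes that threshold was passed by 4.54% and 4.90% in S1-like cells at 6 and 12 weeks and by 5.42% and 4.88% in S2-S3-like cells. That fructose and gluconeogenesis list had median log2 fold changes of 0.29 and 0.10 in S1-like cells at 6 and 12 weeks and of 0.39 and 0.27 in S2-S3-like cells, beside medians over all genes of 0.00, 0.00, 0.01 and 0.02. In the same order the medians were -0.01, -0.10, -0.15 and -0.28 for the other transporters and -0.13, -0.03, -0.11 and -0.04 for the partners and regulators.

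The sexes differed in 4 of the 29 tested genes of these lists in S2-S3-like cells, beside 10.1% of all genes there, and in 2 of 29 in S1-like cells. Akr1b3, the aldose reductase that turns glucose into sorbitol, measured 11.6 ± 5.88 CPM in females and 119 ± 54.8 CPM in males in S2-S3-like cells (log2 fold change -3.36 ± 0.40, edgeR adjusted p = 8.97e-05), and was lower in females in S1-like cells too (-0.80, adjusted p = 0.0325, beside 3.36% of genes called there). Sord, which turns sorbitol into fructose, was at 406 CPM in females and 578 CPM in males (-0.59, adjusted p = 0.0401). Pck1, the gate enzyme of gluconeogenesis, was higher in females in S1-like cells (2651 against 1263 CPM, adjusted p = 0.0121) and in S2-S3-like cells (3260 against 1465 CPM, adjusted p = 0.0193). Sgk1, a kinase induced by mineralocorticoids and a known regulator of transporters, was at 113 ± 90.5 CPM in females and 29.7 ± 20.0 CPM in males in S2-S3-like cells (1.86 ± 0.38, adjusted p = 0.00555). The sexes overlapped there for Sgk1 (22.4 to 288 CPM in females, 9.79 to 70.9 CPM in males), Sord (258 to 703 and 440 to 750 CPM) and Pck1, and not for Akr1b3. The shallower library set held females only, and these sex values are given without a barcode list term.

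The genes whose levels followed each transporter most closely were sought over 271 sums of a library and class, by Pearson's r of log2(CPM + 1) over 12831 other genes. The sums share libraries and depth, so r is a description. Slc34a1, Cubn, Slc5a12 and Cldn10 were among the markers that named the classes, so their r is in part fixed by how the sums were formed. Slc2a2 ran with Slc34a1 (0.90), the sodium-phosphate cotransporter, and Msra (0.87). Slc5a10 ran with Gm19950 (0.85) and Abcc2 (0.84), and Slc2a5 with Khk, the fructokinase, and Msra (0.85 each). Slc5a2 ran with Slc5a12 (0.85), a lactate transporter of S1, Spp2 (0.83) and Slc34a1 (0.83), and Slc5a9 with Cubn (0.81), the endocytic receptor cubilin, Dnajc22 (0.81) and C330002G04Rik (0.80).

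The transporters highest outside the PT had other companions. Slc5a1 ran with Car4 (0.79), a membrane carbonic anhydrase, Gm15889 (0.79) and Cldn10 (0.78), a claudin of the aLOH. Slc2a1 ran with Gm16136, Il17re and Eps8l1 (0.82 each), and Slc2a4 with Gcgr (0.85), the glucagon receptor, Gm11789 (0.82) and Ndrg2 (0.82). Slc2a3 ran with the leukocyte genes Tbc1d10c (0.75), Pik3cg (0.75) and Cd180 (0.74).

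Some transporters share their locus with other genes. BC017158 overlaps the 3′ end of Slc5a2 on the opposite strand and stood at 6.64 CPM in S1-like cells. Fam83g and Grap overlap Slc5a10 on the opposite strand, at 16.3 and 0.458 CPM in S1-like cells, and 1700112D23Rik overlaps Slc2a2 at 1.32 CPM. None of them was called between DN and control in PT-like cells.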

How the data were processed

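Single-cell libraries of 16 mouse kidneys were read as the authors deposited them, as raw UMI counts per gene and barcode, which they made with Cell Ranger 3.0.2 on mm10. Cells needed 200 to 7000 genes and no more than 50% of counts from mitochondria (20% outside tubular classes), and called doublets (7.78%) were removed. Cells were clustered with scanpy 1.11.5 (2000 variable genes, 30 principal components, Harmony over libraries, 20 neighbours, Leiden resolution 1.0, 49 clusters) and named from at least 3 detected markers. Some markers and genes that these rules select are not reported here. The members and lists were chosen with earlier results of these data known. All 9 transporters were described in every class, genes of the related lists were named where called in PT-like cells (at most 4 per list and contrast), and the 3 genes most like each transporter by r. The segment ratio test with its alternatives, leaving out Ttc36 or unresolved cells, and the alternatives for the sex difference of the DN effect were added after the data were seen.

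UMIs were summed per library and class with at least 10 cells and tested with edgeR 4.0.16 (quasi-likelihood, TMM factors, filterByExpr, genotype within age and sex within age, R 4.3.3), with Benjamini-Hochberg adjustment per class and contrast. The script was tested on simulated data. Coordinates come from GENCODE M21. Replicate numbers were checked by the correlation of the deviations of same-numbered mice from their group means, in 4 pairings of control with DN and 4 of 6 with 12 weeks per class. All 8 were over 0.1 in the sum of all kept cells (0.510 to 0.711) and in S1-like (0.200 to 0.635), PC-like, aLOH-like and mesangial-like cells, and 7 of 8 in S2-S3-like and DCT-like cells, so a replicate block (pairs of DN and control mice of one sex and age) was fitted as an alternative. In females the number also goes with the barcode list. Mice are separate animals, and precision is limited by 4 mice per genotype and age and by library depth.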

Additional observations from a re-analysis of the deposited data

Results flagged for a closer look

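Within groups of 4 mice, 7 of 60 sets of levels of a transporter in a class held a mouse far from the others (a gap to the nearest over 0.829 of the range). For 4 values of 1 normal distribution such a gap arises in about 1 in 20 sets. Each group here mixed both sexes and both library sets, and the 60 sets share mice, so that rate is no test of the count. The first DN female of 6 weeks and the first control female of 12 weeks, named below, are of the shallower library set. Slc5a2 in S1-like cells reached 814.1 CPM in the first DN male of 6 weeks, while the other 3 DN mice lay at 494.7 to 539.7 CPM. Slc2a2 in S1-like cells was at 163.5 CPM in the first DN female of 6 weeks, against 352.5 to 384.4 CPM. Slc2a2 in S2-S3-like cells was at 177.1 CPM in the second control female of 6 weeks, against 74.53 to 90.65 CPM. Slc5a1 in S2-S3-like cells was at 87.08 CPM in the second DN female of 6 weeks, against 45.22 to 49.1 CPM. Slc5a9 in S1-like cells was at 0 in the first DN female of 6 weeks, where a count of 0 allows up to 4.12 CPM (3 UMIs), against 16.29 to 18.34 CPM. In the second control female of 12 weeks it was at 36.33 CPM, against 9.458 to 14.03 CPM. Slc2a1 in PC-like cells was at 169.3 CPM in the first control female of 12 weeks, against 230.7 to 235.3 CPM.

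The log2 ratio of S2-S3-like to S1-like levels differed between DN and control mice for 3 genes. The difference was -1.201 for Slc5a10 (exact permutation, adjusted p = 0.00926), -0.8296 for Slc5a1 (adjusted p = 0.0463) and 0.9423 for Slc5a9 (adjusted p = 0.0463, exact permutation over 6 genes). The calls for Slc5a1 and Slc5a9 were each lost in 12 of 16 sets that left out 1 library, and the Slc5a1 difference was -0.54 without the first control female of 6 weeks (exact adjusted p = 0.0864). The Slc5a9 difference includes the first DN female of 6 weeks with its 0 in S1-like cells, and was 0.51 without that library (exact adjusted p = 0.190).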

How the results depend on the processing

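The number of transporter tests called for DN at 6 weeks, 3 of 60, was 8 with no filter on low counts (153 tests), 5 at Leiden resolution 2.0 (72 tests), 5 with the replicate block, 0 in the larger library set alone (68 tests), and 0 to 3 without 1 library. At 12 weeks, 1 of 60 became 4 by DESeq2, 6 with no filter, 2 with a barcode list term, 7 with the block and 0 to 2 without 1 library. For sex, 2 became 4 by DESeq2, 8 with no filter, 7 at resolution 2.0 and 1 to 3 without 1 library (3 of 62 tests without the second control male of 6 weeks). The age difference in control was called 3 times with no filter and 3 times at resolution 2.0 (Slc2a2, Slc2a5 and Slc5a10 in intercalated-like cells of unresolved subtype) and 0 to 1 times without 1 library, and the difference between the DN effects at both ages once with no filter (1). The sex difference of the DN effect, 0 of 16 in PT-like types, was 1 by DESeq2, 2 with no filter, 1 with a barcode list term, 1 at resolution 2.0, 1 with the block and 0 to 1 without 1 library. The cause of these shifts was not tested, apart from the number of tests given. The S2-S3-like share differed by 5.31 points, by 0.679 at resolution 2.0 (exact permutation p = 0.748), by 4.085 with unresolved cells left out (exact permutation p = 0.0586), and by 4.06 to 6.34 without 1 library. Slc5a2 in S1-like cells at 12 weeks changed sign, to 0.0298 with no filter and 0.14 in the larger set, and ran from -0.18 to 0.10 without 1 library. At 6 weeks it ran from -0.12 to 0.32. Beyond the results given with it, the block changed no other call named here that was fitted with it. The segment ratios were not tested with the block. Sex has no paired value, because the pairs lie within a sex. The log2 segment ratio of DN minus control ran from -1.326 to -1.031 for Slc5a10, from -0.9658 to -0.5375 for Slc5a1 and from 0.5069 to 1.125 for Slc5a9 without 1 library, and with a pseudocount of 5 CPM the latter 2 were -0.3448 and 0.5115. Without doublet removal 1 of 41 class levels of at least 10 CPM moved by over 1 SD (Slc2a1 in mesangial-like cells, 25.4 CPM), and 6 of 112 lower ones, among them Slc2a1 (15.3 CPM) and Slc2a4 (4.42 CPM) in glomerular endothelial-like cells.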
